A study of Mus musculus with 11 samples.

Results

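RNA sequencing gave the transcript levels of 10 genes of the NF-kB system in mouse macrophages cultured with or without the matrix protein CYR61. The members are the 5 NF-kB subunit genes Nfkb1, Nfkb2, Rel, Rela and Relb, and 5 genes of inhibitors and brakes, Nfkbia, Nfkbib, Nfkbie, Nfkbiz and Tnfaip3. They were chosen by gene symbol, and all 10 were found among the 55487 gene IDs of the count table. The 7 control libraries (0 µg/ml) and the 4 CYR61 libraries (0.5 µg/ml for 24 h) came from bone marrow-derived macrophages of C57BL/6J mice aged 2 to 5 months. Marrow cells of both groups had been grown for 5 to 6 days in medium with 10% CMG-conditioned medium, then kept in medium with 2% of it. CYR61, also called CCN1, was a purchased protein that is known to bind integrins and heparan sulfate proteoglycans. Whether controls received a vehicle, and whether each library had its own animal or culture, is not stated in the labels. Each p-value therefore refers to variation among libraries that may be only technical.

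NF-kB is a family of dimeric transcription factors that carry inflammatory signals to the nucleus. In resting macrophages most dimers of RelA, c-Rel and p50 are held in the cytoplasm by IkB proteins, which a kinase complex marks for degradation when Toll-like or cytokine receptors are engaged. A slower branch processes p100, the Nfkb2 product, to p52, the main partner of RelB. NF-kB induces several of its own genes and inhibitors, so their transcript levels form part of the feedback that ends a response.

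NF-kB dimers recognise kB motifs, and 6 of the matching stretches in promoters of the members are shown here to let the feedback genes be seen beside their transcript levels. RefSeq promoter windows of 250 bases before to 50 after a transcript start (GRCm38.p6) were at hand for 7 of the 10 members, in 10 windows; Nfkb1, Relb and Nfkbiz had none in that table. The 10-base kB consensus was searched on both strands, and overlapping matches were joined. It was found in 7 of these 10 windows, those of 5 members, against 8.46% of all 32851 windows. The windows are not independent: those of the later Nfkb2 starts overlap and share a match, which counts in both. Capitals mark the matched stretch, each line reads 5′ to 3′ on the gene's strand, and a match is a description of letters, not a measured site.
Nfkb2, chr19:46304683-46304723 (+): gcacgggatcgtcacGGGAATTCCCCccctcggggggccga
Nfkb2, chr19:46304711-46304750 (+): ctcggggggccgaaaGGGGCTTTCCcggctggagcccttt
Nfkbia, chr12:55492652-55492691 (-): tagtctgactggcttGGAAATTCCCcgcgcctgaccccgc
Tnfaip3, chr10:19015398-19015437 (-): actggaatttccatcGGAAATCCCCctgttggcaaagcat
Rel, chr11:23771036-23771076 (-): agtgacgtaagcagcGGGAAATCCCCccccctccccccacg
Nfkbie, chr17:45555579-45555618 (+): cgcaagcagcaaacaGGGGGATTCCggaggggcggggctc
The match of Nfkbia began 29 bases before its start. The printed match of Tnfaip3 began 12 bases before its start, and another one in the same window, not printed, began 125 bases before it. In Nfkb2 the stretches began 39 and 11 bases before the first of its 3 listed starts; matches in the windows of the other starts are not printed. The windows of Rela and Nfkbib held no match.

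All libraries were of similar depth, with 14912123 to 21047654 counts in controls and 17390272 to 20760322 with CYR61. Macrophage markers were abundant: the 10 listed summed to 22920 to 24270 CPM (counts scaled by library size and TMM factors) in controls and 25470 to 27690 with CYR61, and 7 of the 10 rose. Most of each sum was Lyz2, with means of 17240 CPM in controls and 19560 CPM with CYR61. Of the listed markers of other cells, those of T and NK cells summed to at most 0.740 CPM in any library, with Cd3e, Cd3g, Ncr1 and Gzmb at 0, those of B cells to at most 1.003 CPM, with Pax5 and Ebf1 at 0, and those of mast cells and basophils to at most 0.491 CPM. Stromal markers summed to at most 2.06 CPM and dendritic cell markers to at most 3.32 CPM. In the neutrophil list, at 66.5 to 80.0 CPM in controls and 70.4 to 82.9 CPM with CYR61, Csf3r held nearly all counts, S100a8 rose from 0.970 to 1.69 CPM (edgeR adjusted p = 0.0213) and Ly6g was at 0. The erythroid and megakaryocyte list stood at 6.63 to 9.85 and 10.4 to 12.3 CPM, and its Pf4 rose, with Hbb-bt and Car1 at 0. The part of these shifts in the results below was not tested, and in bulk RNA fewer cells of a type and less RNA per cell cannot be told apart. CYR61 replicate 4 stood apart in ribosomal RNA genes, which took 2.41% of its counts, against 0.246 to 0.797% in the other 10 libraries. CYR61 replicate 1 had the lowest share of counts in mitochondrial genes, 0.953% against at least 1.24% in the others.

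CYR61-treated macrophages differed from controls in 1 member. Relb, the subunit of the slower p100 branch, rose 1.16-fold (95% interval 1.07 to 1.26). The other 9 members did not pass the test, and the estimated change of each lay between 0.972 and 1.08 times control. Of the 10 members tested, 1 rose and 0 fell (7.96% of all genes passed), against 5.33% of the 15135 genes tested that rose and 2.63% that fell (edgeR quasi-likelihood test, Benjamini-Hochberg adjusted p under 0.05). With 10 members a single call is close to that background and says nothing about the list. At an unadjusted p under 0.05, 2 of the 10 members passed (Relb and Nfkb2), close to the share of 20.4% among all genes. The median log2 fold change was 0.03 over the subunits, 0.04 over the inhibitors and -0.01 over all genes tested; with libraries scaled by size alone these medians were -0.02, -0.0014 and -0.05. The plot of CPM by library shows these values for each member.

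**Figure D1:**
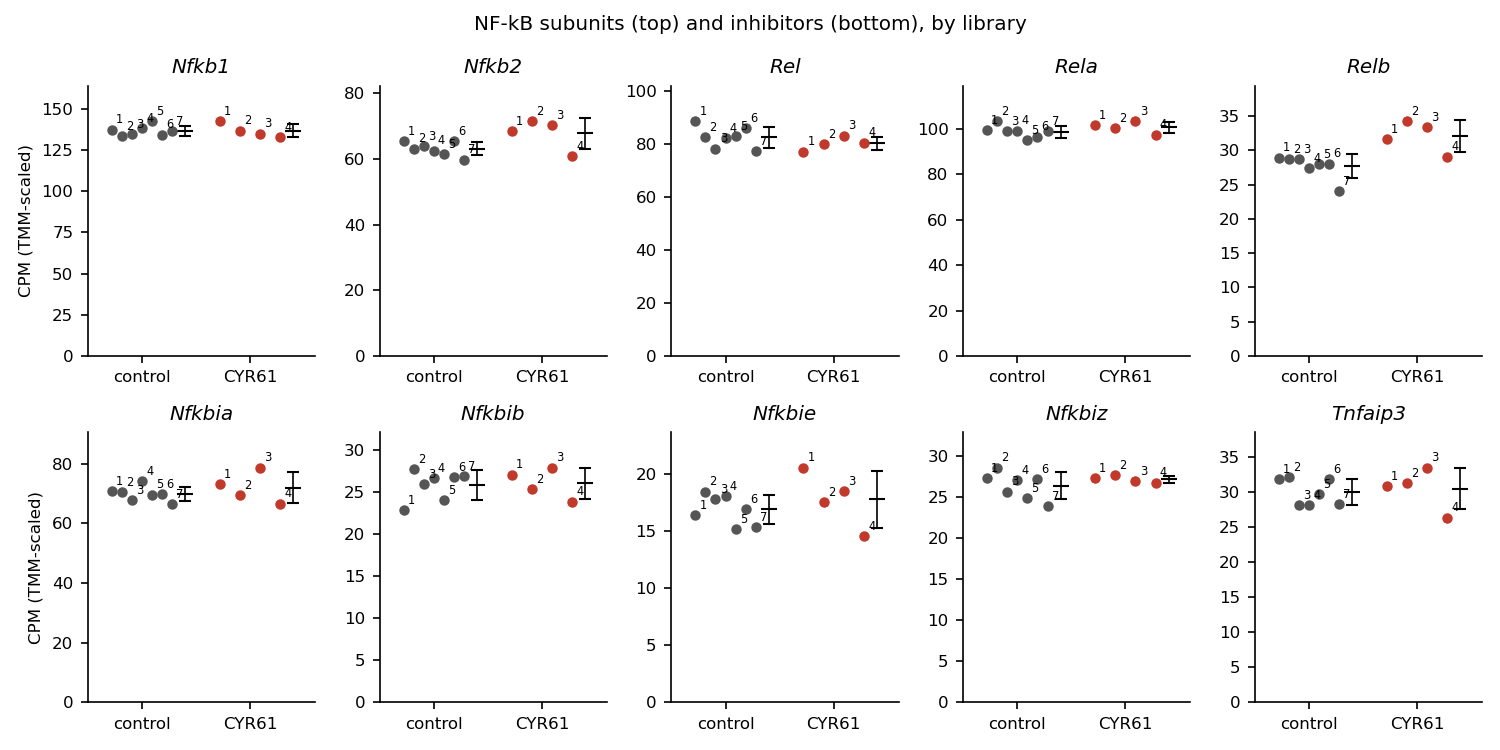
Transcript level of each member in CPM (TMM-scaled, axis from 0) in the 7 control libraries (grey) and 4 CYR61 libraries (red), numbered by replicate, with mean and SD bars beside the points. Relb is the member in which all 4 CYR61 libraries (29.1 to 34.3 CPM) lie above all 7 controls (24.1 to 28.95 CPM).

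Relb encodes RelB, a subunit that activates transcription in dimers with p52 or p50. Its level was 24.1 CPM in the lowest control, 28.1 CPM in the median control and 28.95 CPM in the highest. The CYR61 libraries 1 to 4 held 31.6, 34.3, 33.5 and 29.1 CPM. The groups did not overlap, which held for 7.16% of all genes tested, 4.65% with CYR61 above, but the gap between CYR61 replicate 4 and the highest control was far smaller than the spread within either group. The means were 27.7 ± 1.70 CPM (SD, n = 7) and 32.1 ± 2.30 CPM (SD, n = 4), a log2 fold change of 0.21 ± 0.06 (SE; edgeR, Benjamini-Hochberg adjusted p = 0.0227). In the authors' deposited table the log2 fold change of Relb is 0.22, with an adjusted p of 0.00884. The call kept its direction in all 20 alternative fits and was lost in 5 of them: without CYR61 replicate 2 (log2 fold change 0.18, edgeR adjusted p = 0.113), without CYR61 replicate 3 (0.19, adjusted p = 0.0836), with libraries scaled by size alone (0.17, adjusted p = 0.0735), and in replicates 1 to 4 of both groups with the replicate number as a block (0.17, adjusted p = 0.0771) or without it (0.17, adjusted p = 0.0749). Without CYR61 replicates 1 and 4 the log2 fold change was 0.29 (edgeR adjusted p = 0.0108).

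Nfkb2 encodes p100, which acts as an IkB-like inhibitor until it is processed to the subunit p52. Controls ranged from 59.9 to 65.5 CPM with a median of 63.2 CPM. With CYR61 the 4 libraries held 68.5, 71.6, 70.3 and 61.0 CPM. Replicates 1 to 3 lay above every control, and replicate 4 lay below all controls but 1. The means of 63.1 ± 2.05 CPM (SD, n = 7) and 67.8 ± 4.74 CPM (SD, n = 4) gave a log2 fold change of 0.10 ± 0.04 (SE), which did not pass (edgeR, Benjamini-Hochberg adjusted p = 0.149); the 95% interval of the fold was 1.01 to 1.14. Without CYR61 replicate 4 the log2 fold change was 0.15 and passed (edgeR, adjusted p = 0.0165), and without replicates 1 and 4 it was 0.17 (edgeR, adjusted p = 0.0211). The adjusted p of Nfkb2 ran from 0.0165 to 0.436 over the 20 alternatives. In the GENCODE M21 annotation 531 and 299 of the 4584 exonic bases of Nfkb2 are shared with AC114539.1 and Psd on the opposite strand, and without strand information reads there cannot be told apart. These 2 genes held 7.95 and 3.36 CPM in controls and 7.28 and 3.01 CPM with CYR61.

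The subunits of the faster branch gave narrower intervals. Rela encodes RelA (p65), the main activating subunit in macrophages. It stood at 94.99, 99.1 and 103 CPM in the lowest, median and highest control and at 102, 100.3, 103 and 97.5 CPM in the CYR61 libraries. These ranges overlap almost wholly, and the 95% interval of the fold was 0.976 to 1.06 (edgeR, Benjamini-Hochberg adjusted p = 0.663).

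Nfkb1 encodes p105, the precursor of the p50 subunit. Controls held 133 to 142 CPM (median 136) and the CYR61 libraries 142, 137, 135 and 133 CPM. The groups overlapped, and among controls it was the steadiest member, with a coefficient of variation of 2.24%. Among CYR61 libraries it was not, at 2.98% against 1.47% in Nfkbiz. Its 95% interval, 0.959 to 1.05 times control, leaves room for a change of a few percent only (edgeR, Benjamini-Hochberg adjusted p = 0.986).

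Rel encodes c-Rel, which in macrophages is known for driving interleukin-12 genes. It was the only member with an estimate below control in the main edgeR fit. The estimate of Rel was below control in all 20 alternatives too, and passed in 0 of them. With libraries scaled by size alone the estimates of Nfkb1, Rela, Nfkbia, Nfkbib, Nfkbiz and Tnfaip3 were below control as well. Rel again had the lowest, with a log2 fold change of -0.09, against -0.04 in Nfkb1. Controls ranged from 77.4 to 88.8 CPM (median 82.6) and the CYR61 libraries held 77.3, 80.1, 83.3 and 80.7 CPM. All CYR61 values but the first lay within the control range, and the interval was 0.920 to 1.03 times control (edgeR, Benjamini-Hochberg adjusted p = 0.597).

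**Figure D2:**
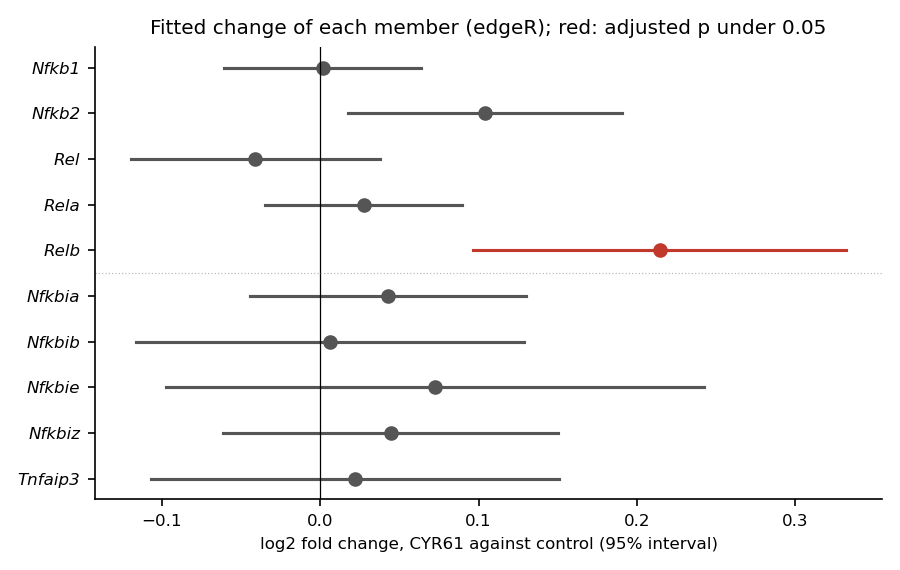
Log2 fold change of each member, CYR61 against control, with its 95% interval from the edgeR fit; subunits stand above the dotted line and inhibitors below. Relb (0.21) is the 1 member past an adjusted p of 0.05, and the intervals of 8 members include 0; that of Nfkb2 (0.10) does not, although its adjusted p is 0.149.

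None of the 5 inhibitor genes passed. Nfkbia encodes IkB-alpha, the inhibitor that NF-kB resynthesises within the course of a response. It stood at 66.4 to 74.2 CPM in controls (median 69.8) and at 73.2, 69.5, 78.7 and 66.6 CPM with CYR61. Only replicate 3 exceeded the controls. The interval of 0.970 to 1.095 times control does not include a rise of the size estimated for Relb (edgeR, Benjamini-Hochberg adjusted p = 0.620).

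Tnfaip3 encodes A20, a ubiquitin-editing enzyme that shuts off signalling upstream of the IkB kinases. Its controls ranged from 28.1 to 32.2 CPM (median 29.7), and the CYR61 libraries held 30.9, 31.3, 33.5 and 26.4 CPM. Replicate 3 lay above every control and replicate 4 below every control, so the CYR61 libraries spanned more than the controls did. The fold lay in a 95% interval of 0.929 to 1.11 (edgeR, Benjamini-Hochberg adjusted p = 0.888).

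Nfkbie encodes IkB-epsilon, a slower feedback inhibitor. It had 15.2 to 18.5 CPM in controls (median 17.0) and 20.6, 17.6, 18.5 and 14.6 CPM with CYR61. Replicate 1 lay above the controls and replicate 4 below them. This was the member that varied most, with coefficients of variation of 7.68% among controls and 14.0% among CYR61 libraries, and its interval of 0.935 to 1.18 times control is the widest (edgeR, Benjamini-Hochberg adjusted p = 0.675). It is also the member of lowest CPM, and a rise of the size of that in Relb lies within its interval.

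Nfkbiz encodes IkB-zeta, a nuclear protein that is induced by Toll-like receptor signals and is needed for secondary response genes. Controls held 23.9 to 28.6 CPM (median 27.1) and the CYR61 libraries 27.3, 27.7, 27.0 and 26.8 CPM. All CYR61 values lay inside the control range, and their coefficient of variation was 1.47% against 6.18% among controls, while counting error alone would give 4.47% in the CYR61 libraries. The interval was 0.958 to 1.11 times control (edgeR, Benjamini-Hochberg adjusted p = 0.682).

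Nfkbib encodes IkB-beta, an inhibitor that NF-kB does not strongly induce. It stood at 22.9 to 27.8 CPM in controls (median 26.7) and at 27.1, 25.4, 27.9 and 23.9 CPM with CYR61, with an interval of 0.922 to 1.09 times control (edgeR, Benjamini-Hochberg adjusted p = 0.970). Replicate 3 alone lay above the controls, by less than 1 SD. Ccer2 and Sirt2 share 314 and 42 of its 2169 exonic bases on the opposite strand, in GENCODE M21. Ccer2 had at most 5 counts in any library. Sirt2 held 151 CPM in controls and 150.1 CPM with CYR61, so reads in the 42 bases shared with it may belong to either gene.

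The authors' deposited table gives adjusted p values of 0.102 for Nfkb2 and 0.604 to 0.983 for the other 8 members.

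CYR61 replicate 4 was the lowest CYR61 library for 9 of the 10 members, Rel being the exception, while it was the lowest for 23.6% of all genes tested. Among controls, replicate 7 was the lowest for 5 members (Nfkb2, Rel, Relb, Nfkbia and Nfkbiz), against 16.4% of all genes, and replicate 2 the highest for 5 (Rela, Nfkbib, Nfkbie, Nfkbiz and Tnfaip3), against 10.9%. The 2.41% of counts in ribosomal RNA genes was measured in that same CYR61 replicate 4, and its part in the low values was not tested. Without this library 2 members passed, Relb (log2 fold change 0.26, edgeR adjusted p = 0.00978) and Nfkb2, as given above.

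Levels of different genes were compared as CPM per kilobase of merged exons (GENCODE M21). In controls the order was Nfkbia at 43.4 ± 1.51, Rela at 32.2 ± 0.844, Nfkb2 at 13.8 ± 0.446, Nfkbib at 11.9 ± 0.804, Nfkb1 at 11.3 ± 0.253, Rel at 11.1 ± 0.533, Relb at 7.13 ± 0.437, Nfkbie at 5.56 ± 0.427, Nfkbiz at 5.26 ± 0.325 and Tnfaip3 at 4.16 ± 0.261 (SD, n = 7). The ranges of Nfkbib, Nfkb1 and Rel overlapped between neighbours, as did those of Nfkbie and Nfkbiz, so their order is not fixed by these libraries. The transcripts of the IkB-alpha and RelA genes thus stood highest per length. With CYR61 the order of the means was the same, and Relb, at 8.26 ± 0.591 (SD, n = 4), still lay below Rel at 10.8 ± 0.330. The authors' own annotation is not stated in the labels, so these lengths are approximate.

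**Figure D3:**
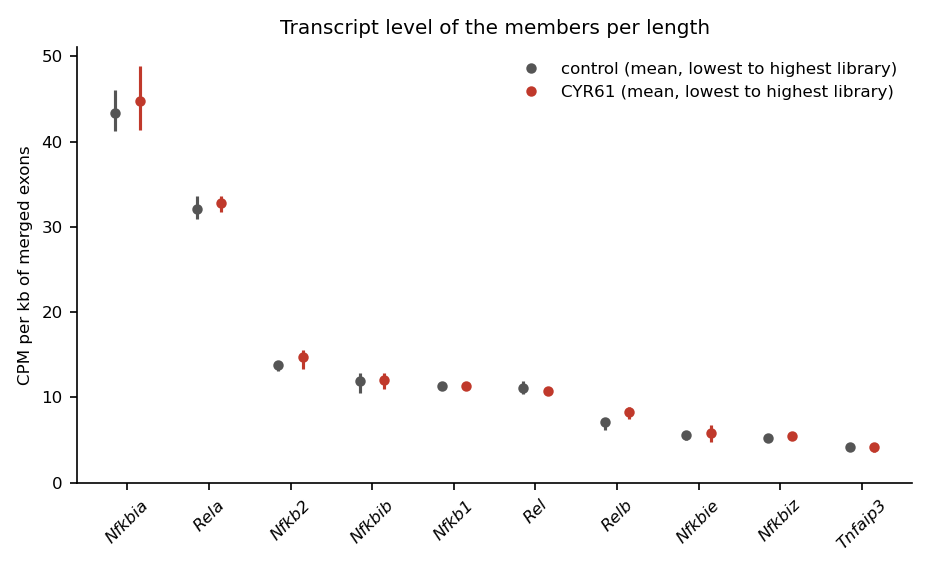
Level of each member per length (CPM per kilobase of merged exons, axis from 0), as the mean and the lowest to highest library of the 7 control (grey) and 4 CYR61 (red) libraries. Nfkbia and Rela stand above the rest (43.4 and 32.2 in controls), and Tnfaip3 is lowest at 4.16.

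Ratios of counts within a library do not depend on how libraries are scaled, and 3 were compared. The log2 ratio of Relb to Rela ranged from -2.04 to -1.76 in controls and was -1.68, -1.55, -1.63 and -1.75 in CYR61 replicates 1 to 4. All 4 CYR61 libraries lay above all controls. The means, -1.84 ± 0.0964 (SD, n = 7) and -1.65 ± 0.0838 (SD, n = 4), differed by 0.18 ± 0.06 (SE). Over the 330 possible splits an exact permutation test, two-sided, gave p = 0.00303, the smallest it can give, and 0.00909 after Benjamini-Hochberg adjustment over the 3 ratios. Relb thus gained on Rela in the same libraries. Since the Rela levels overlapped, this is the rise of Relb seen on another scale and not a second observation. Without CYR61 replicate 2 or 3 the exact permutation test gave an adjusted p of 0.05 each, at differences of 0.15 and 0.18.

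The log2 ratio of Nfkb2 to Nfkb1 compares the precursor genes of p52 and p50. It ran from -1.21 to -1.04 in controls and was -1.06, -0.93, -0.94 and -1.12 with CYR61. Replicates 2 and 3 lay above all controls and replicates 1 and 4 among them, and the difference of 0.10 ± 0.05 (SE) did not pass (exact permutation test, p = 0.0697, adjusted p = 0.105). Without CYR61 replicate 4 it was 0.14 (exact permutation test, adjusted p = 0.0375). For Rel to Rela, controls ran from -0.35 to -0.16 and the CYR61 libraries held -0.39, -0.32, -0.31 and -0.27. The difference of -0.07 ± 0.04 (SE) did not pass either (exact permutation test, p = 0.194, adjusted p = 0.194).

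**Figure D4:**
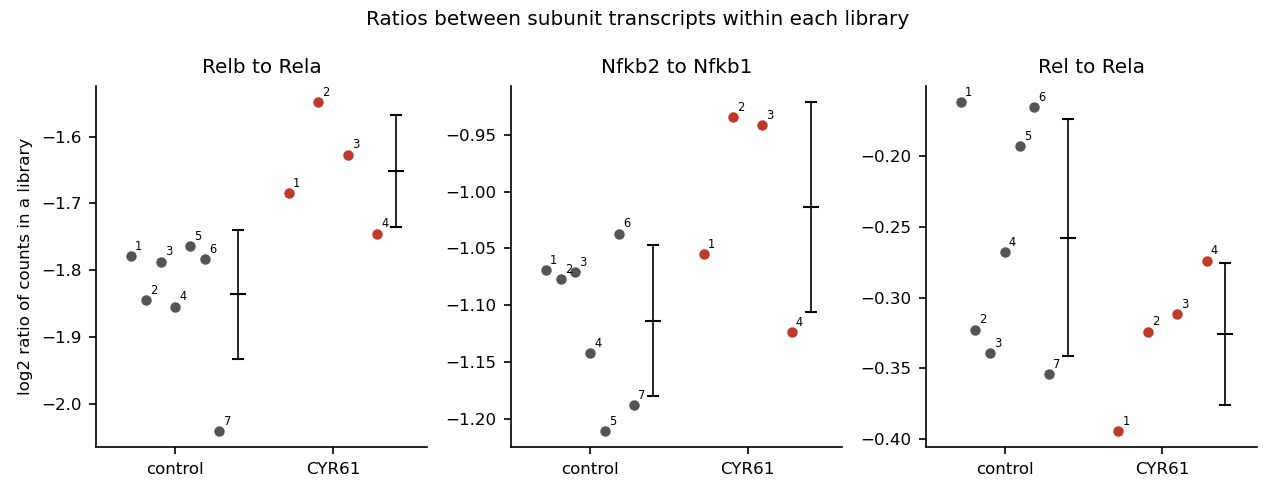
Log2 ratio of the counts of 2 subunit genes within each library (axes do not start at 0), for 7 control (grey) and 4 CYR61 (red) libraries numbered by replicate, with mean and SD. The Relb to Rela ratio separates the groups (at most -1.76 in controls and at least -1.75 with CYR61, a narrow gap), the other 2 ratios overlap.

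The genes whose pattern over the 11 libraries lay closest to that of Relb were N4bp1, Mfsd7a and Erlec1, among 8644 genes whose mean reached 10 CPM. Likeness was measured as the root mean square difference of log2 CPM, each gene centred on its own mean, and was 0.0556, 0.0561 and 0.0638 for these 3, against a median of 0.154 over all genes compared. Nfkb2 came 12th at 0.0716, closer than any other member; Nfkbiz was 295th and Rela 1004th. N4bp1, which encodes a ribonuclease that restrains NF-kB-dependent cytokine transcripts, rose from 68.8 ± 2.67 to 78.3 ± 6.84 CPM (log2 fold change 0.19, edgeR adjusted p = 0.0159). Mfsd7a rose from 24.3 ± 1.91 to 27.95 ± 1.23 CPM (edgeR adjusted p = 0.0372), and Erlec1, with a log2 fold change of 0.14, did not pass (edgeR adjusted p = 0.151). This likeness includes the difference between the groups and is a description of these libraries.

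The other genes of the pathway were read from 5 lists by role, chosen with earlier results of these data known. Of 90 genes outside the members 81 were tested, and 22 passed (27.2%, against 7.96% of all genes), 20 higher and 2 lower with CYR61. Because of that choice the share describes these lists and is no support for the pathway as a set. The target list alone held 14 of the rises, some of genes also on another list, and the 2 falls. Its Mmp9 and Cxcl3 were hardly detected in controls (means 0.0931 and 0.0294 CPM) and could enter only as rises. With libraries scaled by size alone the medians of the kinase, adaptor, ubiquitin regulator and brake lists given below were -0.03, -0.01, -0.02 and -0.0045. Of 10 kinase genes 1 rose and 0 fell (median log2 fold change 0.01). This was Ikbke, the gene of the IkB kinase-related kinase IKK-epsilon, at 90.8 to 98.7 CPM in controls and 108, 120.4, 117 and 106 CPM with CYR61 (edgeR adjusted p = 0.000213). The genes of the core IkB kinase complex did not pass: Chuk stood at 32.0 and 32.3 CPM, Ikbkb at 118 and 115 CPM and Ikbkg at 60.3 and 59.1 CPM. Map3k14, which encodes the NF-kB inducing kinase NIK of the p100 branch, stood at 40.0 ± 1.18 and 39.1 ± 3.18 CPM (edgeR adjusted p = 0.743).

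Of 18 receptor and adaptor genes 4 rose and 0 fell (median log2 fold change 0.03). With libraries scaled by size alone, a minimum mean of 1 CPM, the replicate block, or without control replicate 1, 1 gene of the list fell. Traf6, the gene of a ubiquitin ligase downstream of MyD88, is named with its value known: it stood at 51.9 ± 2.31 and 47.7 ± 0.578 CPM, lower in all CYR61 libraries than in any control, and did not pass (edgeR adjusted p = 0.0558). Myd88, the adaptor gene of most Toll-like receptors, held 59.6 to 66.4 CPM in controls and 73.5, 78.7, 76.8 and 73.3 CPM with CYR61 (edgeR adjusted p = 6.65e-05). Tnfrsf1a, the gene of TNF receptor 1, held 126 to 134 CPM and 145, 150.3, 149.6 and 142 CPM (edgeR adjusted p = 0.000518). In both genes the groups did not overlap. Traf1, a signalling adaptor gene that NF-kB is known to induce, rose from 8.53 ± 1.07 to 11.01 ± 0.697 CPM (edgeR adjusted p = 0.0154). The fourth, Irak4, is named with its value known and rose from 61.6 ± 2.37 to 68.7 ± 3.65 CPM with overlapping groups.

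Among 16 ubiquitin regulator genes 1 rose and 0 fell (median log2 fold change 0.02). Birc3, the gene of the ubiquitin ligase cIAP2, rose from 56.1 ± 2.97 to 63.1 ± 4.78 CPM with overlapping groups (edgeR adjusted p = 0.0338). With libraries scaled by size alone, with the replicate block, in its 8 libraries without the block, and without control replicate 3, 4, 5 or 6, CYR61 replicate 2 or 4, or CYR61 replicates 1 and 4, 0 genes of the list passed. Tnip1 and Tnip2, which encode partners of A20, stood at 75.8 and 76.5 CPM and at 28.6 and 30.4 CPM, neither passing.

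Of the other IkB proteins and brakes 3 of 10 rose and 0 fell (median log2 fold change 0.04). Bcl3 encodes a nuclear IkB protein that works with p50 and p52 dimers. It rose 1.499-fold, a log2 fold change of 0.58 ± 0.08 (SE). Controls held 22.8 to 28.1 CPM (median 24.8) and the CYR61 libraries 40.2, 43.4, 34.3 and 30.3 CPM, without overlap (edgeR adjusted p = 8.87e-05). Replicate 4 was again the lowest. Nlrc5, the gene of an activator of MHC class I genes that has also been described as a brake on NF-kB, rose from 108 ± 6.06 to 128 ± 10.4 CPM (edgeR adjusted p = 0.00366), and N4bp1 is given above. Nfkbid, the gene of the nuclear protein IkB-NS, stood at 14.9 and 14.2 CPM and did not pass.

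The list of 40 NF-kB target genes held the larger changes. Among the 31 that were tested there were 14 rises and 2 falls, and the median log2 fold change was 0.28. Over all genes tested 5.33% rose and 2.63% fell, and this list too was chosen with earlier results known. Mmp9 and Cxcl3, with control means of 0.0931 and 0.0294 CPM, were hardly detected without CYR61 and could enter the count only as rises. Traf1, Birc3 and Bcl3 are in this list too. The 3 targets of lowest p were Saa3, C3 and Ccl5, an acute phase gene, a complement gene and a chemokine gene, at log2 fold changes of 4.75, 1.65 and 1.82. The falls were those of Cd83, a surface protein gene of activated antigen-presenting cells (14.8 ± 1.61 to 11.03 ± 0.816 CPM), and the chemokine gene Ccl3 (32.8 ± 0.981 to 28.7 ± 2.79 CPM), both named with their values known. Ccl3 and Cd83 lay lower in every CYR61 library than in any control, but leaving out any of control replicates 2 and 6 and CYR61 replicates 1 and 2 left 1 fall in the lists. Tnf, the gene of the best-known cytokine of the pathway, stood at 10.9 ± 1.22 and 11.1 ± 2.02 CPM (edgeR adjusted p = 0.933). Tnf was among 15 tested targets that did not pass, as were Ccl2, Ccl4, Cxcl2, Cxcl10 and Ptgs2. The filter on low counts removed 9 targets, from Lcn2 with up to 38 counts in a library to Il12b and Ptx3 with 0 in all. The others removed were Il1a, Il1b, Il6, Cxcl1, Vcam1 and Nos2. With no filter on low counts 38 of the 40 were tested, and 16 rose and 2 fell. A minimum mean of 1 CPM kept 27 targets at a lower median of 0.17, with 12 rises and 2 falls. The fewest rises in any alternative were 11, beside 1 fall. This held without CYR61 replicate 2 (median 0.25) and in replicates 1 to 4 of both groups without the block (median 0.27).

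**Figure D5:**
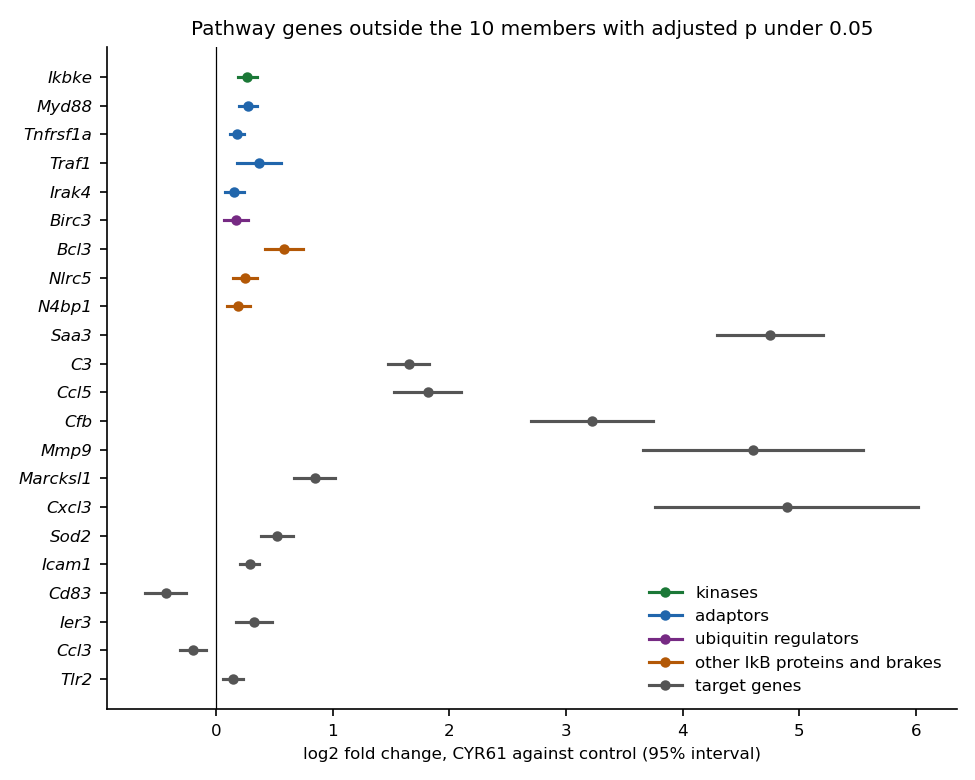
Log2 fold change with 95% interval (edgeR) of the 22 pathway genes outside the 10 members that passed an adjusted p of 0.05, coloured by list; a gene on 2 lists is drawn once. Signalling genes and brakes lie between 0.16 (Irak4) and 0.58 (Bcl3), while targets reach 4.75 in Saa3 and 4.89 in Cxcl3. The intervals of Mmp9 and Cxcl3 rest on very low control means of 0.0931 and 0.0294 CPM and are given for the main fit alone.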

How the data were processed

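The authors deposited estimated counts per Ensembl gene, not normalized, for 11 libraries of total RNA depleted of ribosomal RNA, per the labels. DRAGEN is named in the submitters' processing notes without a role. Genome build, annotation and strand setting: not given in the sources used here. For their own comparison the authors deposited log2 fold changes, p-values, test scores and log2 CPM. The 287 repeated rows were dropped and the estimated counts rounded. The test was that of edgeR 4.0.16 under R 4.3.3 (15135 genes after filterByExpr, TMM factors, glmQLFit and glmQLFTest, two-sided, Benjamini-Hochberg over all genes, threshold 0.05). The fit was also run on counts simulated with its own dispersions. That run was a check of the code and does not bear on the calls of the members. Ratios used exact permutation of the labels. Alternatives were DESeq2 1.42.0, limma-voom (limma 3.58.1), RLE factors, library size alone, no filter, a minimum mean of 1 CPM, a replicate block, the same 8 libraries without it, each library left out, and CYR61 replicates 1 and 4 left out. Members, lists and tests were chosen with earlier results of these data known. Named are all 10 members, up to 3 called genes of lowest p and at least 1 CPM from each list, and the 3 genes closest to a called member; other pathway genes were named for their role with their values known. Each member had at least 250 counts in every library. Counting error alone would give a coefficient of variation among controls of 1.98% (Nfkb1) to 5.63% (Nfkbie), against 2.24% and 7.68% measured. Its part differed by member: for Rel in controls it was 2.55% against 4.81% measured. In the CYR61 libraries it was 5.53% against 14.0% measured for Nfkbie, but 2.32% against 2.45% for Rela.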

Additional observations from a re-analysis of the deposited data

Results flagged for a closer look

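Relb in control replicate 7, at 24.06 CPM, lay far below the other 6 controls, which held 27.4 to 28.95 CPM; the gap was 69.2% of the range of the controls. The same library stood out in the log2 ratio of Relb to Rela, at -2.04 against -1.85 to -1.76 in the other controls. Both values rest on the same low count of Relb. Of 26 groups of values examined 2 held such a library, and chance gives about 1 in 20. Without control replicate 7 Relb still passed, with a log2 fold change of 0.18 (edgeR adjusted p = 0.0241).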

How the results depend on the processing

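Of 1204 genes called over all genes (806 higher, 398 lower), 788 were called without CYR61 replicate 2, of which 205 were lower. Leaving out 1 library gave 788 to 1372 calls in all, 583 to 903 higher and 205 to 469 lower. With libraries scaled by size alone 529 were higher and 938 lower, so that 36.1% of calls were higher against 66.9%. This scaling leaves out the TMM factors, which were 1.004 to 1.023 in controls and 0.971 to 0.993 with CYR61. Why they differ by group was not tested. The count of members called, all of them higher, was 1, and became 0 with size scaling alone, with the replicate block and in the same 8 libraries without the block, and 2 without CYR61 replicates 1 and 4; leaving out 1 library gave 0 to 2. The 2 genes of the other lists that fell became 1 in the 8 libraries without the block and without CYR61 replicates 1 and 4, and 1 to 3 with 1 library left out. The Relb to Rela difference was 0.15 to 0.22 with 1 library left out and 0.16 by paired differences (the replicate block; exact sign-flip permutation p = 0.125, the smallest that 4 pairs allow). The Nfkb2 to Nfkb1 difference was 0.073 to 0.14 with 1 library left out and 0.18 without CYR61 replicates 1 and 4 (exact permutation test, adjusted p = 0.0417). Whether the replicate numbers pair the samples is not stated in the labels. Correlations of same-numbered libraries' deviations from their group means were -0.034 to 0.034. Only the fourth CYR61 library correlated best with the control of its own number. These values did not show pairing, but they cannot exclude a shared animal or culture. Members of lowest count, such as Nfkbie, had the widest intervals.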
